A study of Homo sapiens with 72 samples.

Results

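Expression was compared between 2 groups of U2OS cells, a human osteosarcoma line, that lack G3BP1 and its paralog G3BP2 and were given 200 uM sodium arsenite for 2 h. In the rescue group, knockout cells had been transiently transfected by Lipofectamine with a G3BP1 transgene from which the NTF2 domain was deleted, and RNA was taken 24 h after transfection. The knockout group had the same genotype and arsenite but no transfection, so an effect of the transgene and an effect of transfection cannot be told apart. Each group had 2 libraries, which makes 4 of the 72 libraries of the series. Of 61541 genes listed, 16248 reached a base mean (mean normalised reads over a table's libraries) of 10 in each of the deposited tables and were tested. The groups set beside them, with 2 libraries each, were the same knockout cells and the same NTF2-deletion rescue without arsenite, and knockout cells rescued with wild-type G3BP1 with and without arsenite. All 6 groups carry the knockout. The labels do not say whether libraries of a group came from separate cultures, so the p-values measure only the spread between these libraries.

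G3BP1 is an RNA-binding protein that drives the assembly of stress granules, bodies of untranslated mRNA and protein that form in the cytoplasm when translation stalls. Its NTF2-like domain forms dimers and binds partners such as CAPRIN1 and USP10, and forms of the protein without it assemble granules poorly. Arsenite is a classical trigger of stress granules. It oxidises and binds protein thiols, stops translation through phosphorylation of the initiation factor eIF2, and induces heat shock, metallothionein, antioxidant and immediate-early genes.

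The libraries of the 2 arsenite groups held 12.6M to 16.2M gene reads (M stands for mega). Reads are given per library A and B, where A is only the deeper library of a pair, as whole reads recovered from the deposited base means and divided by size factors over all 12 libraries. Log2 values of these reads correlated across genes at 0.991 within each arsenite group and at 0.916 to 0.917 between them, a description across genes, which are not replicates. Unmapped reads made up 5.68% and 6.17% of all reads in the knockout libraries with arsenite and 9.61% and 9.49% in the rescue libraries. Reads that fell in no annotated gene made up 27.1% and 27.1% in the knockout and 18.6% and 18.4% in the rescue. Without arsenite these reads made up 28.0% and 25.8% in the knockout and 19.9% and 21.1% in the rescue. Mitochondrially encoded genes took 11.7% and 12.1% of gene reads in the knockout and 8.45% and 8.05% in the rescue. The part of these differences in the results below was not tested. The cells are labelled epithelial, yet of 7 epithelial markers 5 were too low to test (KRT5, KRT14 and CLDN3 at most 3.89 normalised reads in the 4 libraries, CDH1 at 5.22 and 4.20 in the knockout and 16.5 and 9.79 in the rescue). The other epithelial markers were present. CLDN4 had 929 and 964 reads in the knockout and 416 in both rescue libraries (-1.16, SE 0.16), and EPCAM 48.0 and 72.4 against 71.0 and 68.5. The mesenchymal marker VIM stood at 12399 to 20666. Of 10 mesenchymal markers 9 were tested, 3 of them higher and 4 lower in the rescue, with NT5E at most 2.94. None of 6 blood cell markers could be tested (CD3E and LYZ at 0). Of 4 neuronal markers the 2 tested, SNAP25 and SYT1, were lower, and the list summed to 316 in both knockout libraries and 74.8 and 71.4 in the rescue. The part of these markers in the results was not tested.

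G3BP1 (ENSG00000145907) checks the rescue label only, since reads per gene show neither the knockout nor the NTF2 deletion. It stood at 3168 and 3277 normalised reads in knockout libraries with arsenite and at 955601 and 977487 in the rescue libraries. The log2 difference was 8.24 (SE 0.08). Reads of G3BP1 made up 6.08% and 6.22% of gene reads in the rescue and 0.0238% and 0.0247% in the knockout, and reads of the transgene and of the endogenous gene cannot be told apart. Wild-type rescue libraries with arsenite held 784731 and 803026, so the NTF2-deletion transcript was 0.26 higher on the log2 scale (wild type minus deletion -0.26, SE 0.06, adjusted p 0.00819, normal test on deposited fold changes). G3BP2 (ENSG00000138757) stood at 1746 and 1733 in the knockout and at 2643 and 2591 in the rescue, a log2 difference of 0.61 (SE 0.11, adjusted p 5.61e-07).

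Across genes, the question was how knockout cells with the truncated G3BP1 differ from knockout cells without it while both are under arsenite. Of the 16248 genes tested, 3941 (24.3%) were higher in the rescue and 3112 (19.2%) were lower, together 43.4%, at an adjusted p under 0.05. The test divides the difference between 2 deposited log2 fold changes by the combined standard error. Both fold changes are over the same 2 untreated knockout libraries, whose error is counted in both standard errors. With that shared error removed, 8686 genes were called, 4819 higher and 3867 lower. Genes at 100 or more mean reads had a median difference of 0.16, and with that shift subtracted the split became 2985 higher and 3962 lower, that is 43.0% higher among called genes in place of 55.9%. limma on the recovered reads called 5706 higher (35.1%) and 5450 lower (33.5%), together 68.7%. Of the 7053 genes called from the deposited values, 7050 were called in the same direction by limma and 1, HSPA6, in the opposite direction. In bulk RNA, fewer cells that express a gene and less RNA per cell cannot be told apart.

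**Figure D1:**
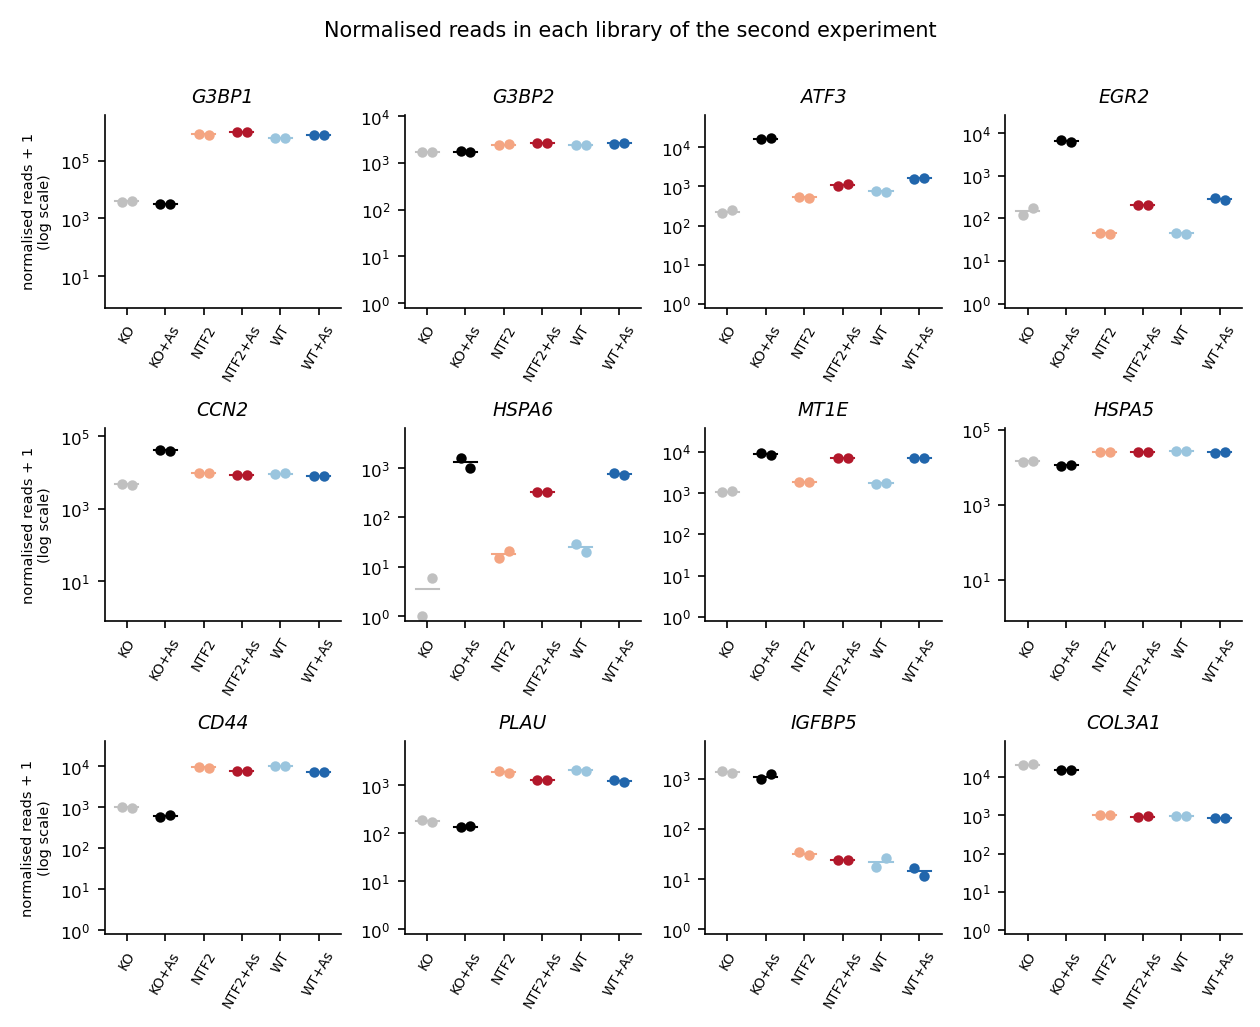
Normalised reads plus 1 (log scale) of 12 genes in each library of the 6 groups: knockout (KO), NTF2-deletion rescue (NTF2) and wild-type rescue (WT), without and with arsenite (+As). Points are libraries and bars are means of 2; ATF3 and EGR2 are highest in the 2 knockout libraries with arsenite, and CD44 and PLAU are high, and IGFBP5 and COL3A1 low, in both rescues with or without arsenite.

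The genes highest in the rescue included surface proteins and secreted proteins. CD44, the hyaluronan receptor, had 587 and 623 normalised reads in knockout cells with arsenite and 7733 and 7619 in the rescue. Its log2 difference was 3.66 (SE 0.13, adjusted p 1.35e-159). AMIGO2, a cell adhesion protein, went from 160 and 213 to 2634 and 2590, a difference of 3.75 (SE 0.22). Neither gene's groups overlapped, which was so for 83.6% of all genes tested (41.9% with the rescue higher and 41.8% with it lower). PLAU, the urokinase that activates plasminogen, had 137 and 139 reads in the knockout and 1297 and 1306 in the rescue, a difference of 3.18 (SE 0.25). TFPI2, a secreted inhibitor of serine proteases including plasmin, had 89.8 and 116 against 942 and 1072, a difference of 3.13 (SE 0.27). VGF, a precursor of secreted neuropeptides, had 1052 and 1104 against 9502 and 9824, a difference of 3.17 (SE 0.11). NAV3 (3.29, SE 0.26), KLHL21 (3.08, SE 0.21), an adaptor of a CUL3 ubiquitin ligase, and TRIML2 (2.92, SE 0.23) completed the 10 highest called genes among those at 100 or more mean reads, beside G3BP1 and HSPA6.

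Among called genes at 100 or more mean reads, the 10 with the lowest differences had at most 43.1 normalised reads in a rescue library. LRRC17, a secreted protein with leucine-rich repeats, had 379 and 419 normalised reads in the knockout and 1.94 and 0.979 in the rescue, where only 3 reads were counted in all. The log2 ratio of its reads lay between -10.37 and -6.54 (95% interval, counting error only). IGSF10 had 730 and 937 against 7.78 and 5.87, a difference of -6.36 (SE 0.35, adjusted p 7.62e-72). LDLRAD4, a restrainer of TGF-beta signalling, had 2676 and 2718 against 36.0 and 43.1, a difference of -5.96 (SE 0.19). BMF, a BH3-only protein that promotes apoptosis, had 357 and 418 against 2.92 and 4.89, a difference of -5.77 (SE 0.43). IGFBP5, which binds insulin-like growth factors, had 977 and 1215 against 23.3 and 22.5, a difference of -5.38 (SE 0.25). The others were TLL1 (-4.92, SE 0.38), a metalloprotease of the tolloid family, JAKMIP2 (-4.89, SE 0.42), PIEZO2 (-4.75, SE 0.26), a mechanically gated channel, SLC2A12 (-4.75, SE 0.31), a sugar transporter, and SESN3 (-4.67, SE 0.24), a stress-responsive sestrin. Without arsenite IGFBP5 had 1390 and 1305 reads in untreated knockout cells and 33.4 and 28.9 in the untreated rescue.

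Some genes could not be tested because they were nearly absent from knockout cells. In all, 356 genes reached a base mean of 10 only in the rescue table and 680 only in the knockout table. MMP3, the matrix metalloproteinase stromelysin, chosen here after its values were seen, had 5 and 4 reads in the knockout libraries with arsenite and 5449 and 5402 in the rescue libraries. It was as abundant without arsenite, at 5250 and 5453 normalised reads in the untreated rescue and 4.35 and 1.23 in the untreated knockout. MYCT1 and G0S2, chosen in the same way, had 6 and 5 reads against 570 and 472, and 5 and 9 reads against 426 and 407.

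The difference between rescue and knockout was next tested against the same difference without arsenite, which is a test of whether the arsenite response differed. Of 15442 genes, 624 (4.04%) had a higher and 475 (3.08%) a lower difference under arsenite, together 7.12%, and 2443 had an unadjusted p under 0.05. With the shrinkage undone, which differs between the tables of the arsenite response (fitted prior widths of 0.148 log2 units in the rescue and 0.589 in the knockout), 603 were higher and 654 lower, so which direction was more frequent depends on it. limma on the reads of the 8 libraries called 1105 higher (6.8%) and 758 lower (4.67%), together 11.5% of 16248. Without arsenite, limma called 5461 genes higher (33.6%) and 5246 lower (32.3%) in the rescue, together 65.9%. Of the genes called by limma under arsenite, 9030 were called in the same direction without it and 180 in the opposite direction.

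**Figure D2:**
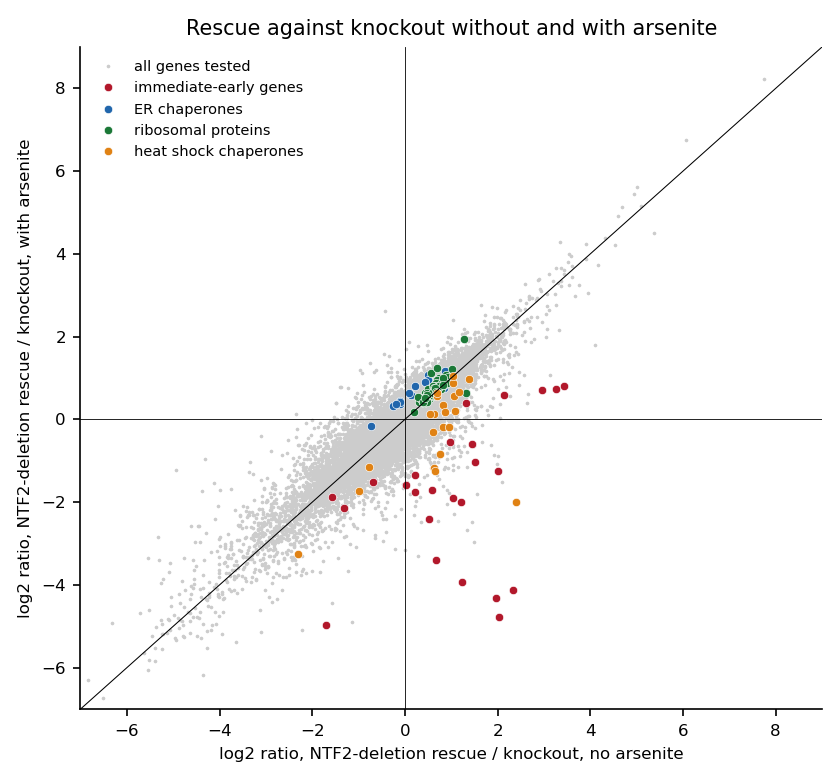
Log2 ratio of mean normalised reads (plus 1), NTF2-deletion rescue over knockout, without arsenite (x) and with arsenite (y), for the 16248 genes tested and 4 gene lists; the diagonal marks equal ratios. Immediate-early genes lie below the diagonal, 14 of 15 ER chaperones above it (HERPUD1 just below), and ribosomal proteins near it to the right of 0.

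Immediate-early genes, transcription factors and phosphatases that stimuli induce within minutes to hours without new protein synthesis, were mostly lower in the rescue. Of 25 tested members 19 were lower, where 19.2% of all genes were, 5 were higher and 1, NR4A2, was not called, and the median difference was -1.47, against 0.01 over all genes tested. ATF3, a stress-induced transcription factor, had 16003 and 16811 normalised reads in knockout cells with arsenite and 1032 and 1123 in the rescue. Its difference was -3.80 (SE 0.17, adjusted p 1.16e-110). EGR2, a zinc finger transcription factor, had 6682 and 6318 against 209 and 204, a difference of -4.47 (SE 0.30, adjusted p 2.24e-47). Of the 5 that were higher (DUSP5, FOSL1, KLF2, KLF6 and MYC), FOSL1, an AP-1 subunit, went furthest after KLF2, with 2476 and 2466 in the knockout and 4245 and 4454 in the rescue (0.91, SE 0.14). KLF2 was also higher (1.02, SE 0.37, adjusted p 0.0164), although it was not called with the shrinkage of the deposited fold changes undone (0.79, adjusted p 0.0978).

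The arsenite response of these genes differed between rescue and knockout. In the authors' deposited tables, all 25 were higher with arsenite in knockout cells, and 13 were higher and 3 lower in the rescue. Of all 16248 genes those tables call 18.4% in the knockout (8.02% higher, 10.4% lower) and 6.11% in the rescue (1.73% higher, 4.38% lower). The test of the difference in response called 24 of 25 lower in the rescue and none higher, and limma on the reads called all 25 lower, with a median of -2.54. Before arsenite, ATF3 had 206 and 242 reads in the knockout and 543 and 512 in the rescue, so the rescue started higher and ended lower. limma called 18 of the 25 genes higher and 4 lower in the untreated rescue. EGR2 started at 120 and 170 in the knockout and at 44.6 and 42.8 in the rescue. FOSL1 and KLF2 stayed higher in the rescue under arsenite but by less than before it: FOSL1 had 298 and 292 reads in untreated knockout and 3232 and 3133 in untreated rescue cells.

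EGR2 shows the kind of upstream sequence that responds to serum and stress kinases. The 250 bases before one of its 3 RefSeq starts (GRCh38.p14) hold 1 match to the serum response element, the site of the factor SRF, on either strand, in capitals.
EGR2, chr10:62816367-62816616, - strand: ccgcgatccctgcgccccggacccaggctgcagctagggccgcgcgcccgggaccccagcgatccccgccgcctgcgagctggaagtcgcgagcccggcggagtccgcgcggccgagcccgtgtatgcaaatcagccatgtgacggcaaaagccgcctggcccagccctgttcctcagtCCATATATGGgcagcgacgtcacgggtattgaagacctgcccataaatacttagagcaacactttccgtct
Of 20 immediate-early genes with a promoter in the RefSeq table, 2 (EGR1 and EGR2) held a match in 250 bases before any listed start, against 1.44% of 27305 genes. The cyclic AMP response element TGACGTCA was in 2 of the 20 (DUSP1 and JUND), against 2.03% of all genes. These matches describe the sequence only.

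Targets of the coactivators YAP and TAZ were more often lower than higher in the rescue under arsenite, but not without it. CCN2, a secreted matricellular protein, had 41867 and 39944 normalised reads in knockout cells with arsenite, 8413 and 8320 in the rescue, and 4819 and 4534 and 9874 and 9528 in the same cells without arsenite. The difference under arsenite was -2.24 (SE 0.08), and the difference in response was -3.33. CCN1, its relative, had 27210 and 25241 against 7748 and 7409 (-1.75, SE 0.08). Of 10 tested members, 6 were lower and 2 higher, where 19.2% and 24.3% of all genes were, with a median of -0.46. Without arsenite, limma called 7 of the 10 higher and 2 lower in the rescue, with a median of 0.83. It called 33.6% and 32.3% of all genes. The 2 that were higher under arsenite were AXL (1.48, SE 0.08), a receptor tyrosine kinase, and F3 (1.14, SE 0.33), tissue factor.

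Heat shock chaperones were split. Of 22 tested members, 10 were higher, 6 lower and 6 not called, and the median was 0.19 (8 higher and 8 lower after the shift of 0.16). Of all genes tested, 24.3% were higher and 19.2% lower, and 18.4% and 24.4% after the shift. HSPA8, the constitutive HSP70, and HSPA4, its nucleotide exchange factor, were higher: HSPA4 had 4114 and 4151 normalised reads in the knockout and 8417 and 8550 in the rescue (1.06, SE 0.09). Several inducible forms were lower. CRYAB, a small heat shock protein, had 884 and 885 against 96.2 and 88.1 (-3.14, SE 0.24), and DNAJB4, an HSP40 cochaperone, had 1369 and 1295 against 377 and 425 (-1.65, SE 0.19). HSPA1A and HSPA1B, near-identical copies whose reads may be split between them, had 13351 and 10835 against 5166 and 5619, and 13464 and 10180 against 5027 and 5004. The test of the difference in response called 16 of the 22 lower and 1 higher, where 3.08% and 4.04% of all genes were. In the authors' deposited tables, 20 of the 22 were higher with arsenite in the knockout and 13 in the rescue. Those tables call 8.02% and 1.73% of all genes higher. Without arsenite, limma called 19 of the 22 higher in the rescue and 3 lower, where it called 33.6% and 32.3% of all genes.

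HSPA6, a strictly inducible HSP70, is where the deposited fold changes and the reads disagree. The difference of the deposited fold changes was 4.92 (SE 0.52), which would make it one of the highest genes. Its normalised reads were 1623 and 992 in knockout cells with arsenite and 329 and 329 in the rescue, so both rescue libraries were below both knockout libraries, and limma gave -1.95 (SE 0.13, adjusted p 7.54e-13). Untreated knockout libraries held 0 and 4.93, and both deposited fold changes rest on them. Fitted priors were 0.589 log2 units wide for knockout with arsenite over untreated knockout and 1.24 for rescue with arsenite over untreated knockout. Undoing the shrinkage, by a width fitted to each table and not to this gene, left the difference at 5.54. The deposited arsenite response in the knockout was 0.92, while limma on the reads gave 9.03. This step does not show whether the shrinkage of this gene was undone, and the cause of the disagreement was not tested. HSPA6 is also the 1 heat shock chaperone counted above as having a higher response, at 1.09 in the deposited values and -4.83 in the reads. limma on the reads of all 22 chaperones called 11 higher and 10 lower, where it called 35.1% and 33.5% of all genes.

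**Figure D3:**
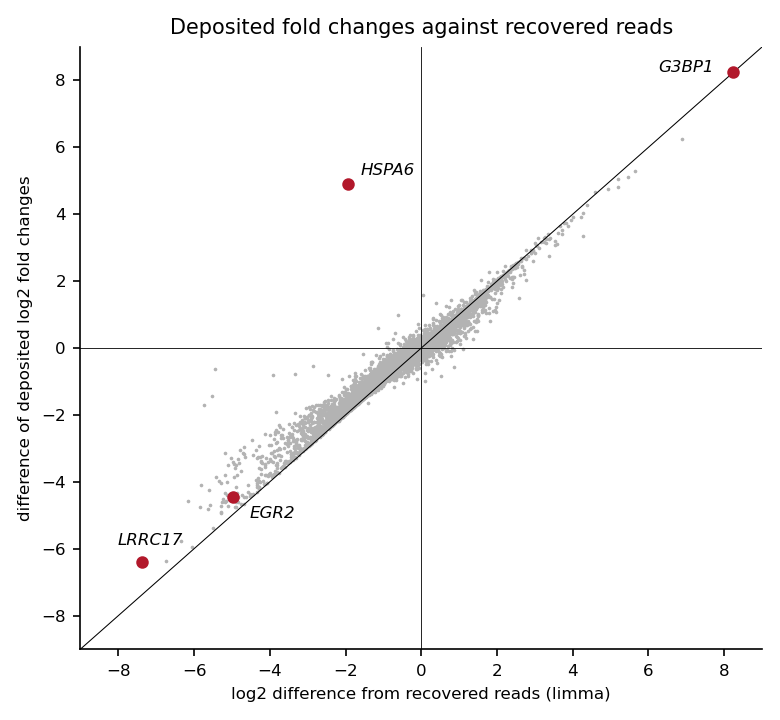
Log2 difference between NTF2-deletion rescue and knockout under arsenite from the recovered reads (x, limma) and from the deposited fold changes (y), for 16248 genes; the diagonal marks equal values. HSPA6 lies at -1.95 on x and 4.92 on y, G3BP1 at 8.23 and 8.24.

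The sequence before the start of HSPA6 holds 2 matches to the heat shock element GAANNTTC, searched on both strands, in capitals.
HSPA6, chr1:161524290-161524539, + strand: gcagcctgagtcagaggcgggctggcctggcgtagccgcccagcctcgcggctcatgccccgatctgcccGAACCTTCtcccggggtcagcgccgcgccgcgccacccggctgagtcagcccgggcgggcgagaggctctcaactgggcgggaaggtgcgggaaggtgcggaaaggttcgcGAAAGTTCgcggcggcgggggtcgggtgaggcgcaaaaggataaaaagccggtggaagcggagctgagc
In 250 bases before any listed start, 13 of 21 heat shock chaperone genes with a promoter held at least 1 such match, against 7.05% of 27305 genes. Among them were HSPA1A, HSPA1B, DNAJB1 and HSPB1, all lower in the rescue, and HSPA8 and HSP90AB1, both higher.

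Metallothioneins are small cysteine-rich proteins that bind metals and arsenic. With the zinc exporter SLC30A1, listed beside them, they were induced by arsenite in both kinds of cells. This held for 5 of 5 tested genes in each of the authors' deposited tables, which call 8.02% of all genes higher in the knockout and 1.73% in the rescue. Between rescue and knockout, 1 of the 5 was higher and 2, MT1E and SLC30A1, were lower, where 24.3% and 19.2% of all genes were. MT2A had 15390 and 13916 normalised reads in the knockout and 22687 and 22153 in the rescue (0.66, SE 0.08), and had stood at 2004 and 2112 and at 13552 and 12244 before arsenite. MT1E had 9432 and 8526 against 7255 and 7124 (-0.26, SE 0.10, adjusted p 0.0238). SLC30A1, which is induced by the same factor, had 8217 and 8147 against 4493 and 4476 (-0.81, SE 0.10). All 5 had a lower response in the rescue, which was called for 3.08% of all genes. MT1G and MT1X were not called (adjusted p 0.997 and 0.913), but limma on the reads called both lower at -0.42. Metallothioneins are close copies of each other, so their reads are uncertain.

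MT2A carries 7 matches to the metal response element TGCACNC or TGCGCNC, the core bound by the factor MTF1, searched on both strands, in capitals.
MT2A, chr16:56608334-56608583, + strand: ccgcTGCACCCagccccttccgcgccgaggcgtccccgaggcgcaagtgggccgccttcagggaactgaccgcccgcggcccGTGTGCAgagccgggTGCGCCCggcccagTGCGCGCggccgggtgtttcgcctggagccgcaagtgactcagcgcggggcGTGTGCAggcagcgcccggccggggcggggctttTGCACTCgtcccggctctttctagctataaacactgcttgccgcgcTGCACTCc
All 4 genes of the list with a promoter in the table held a match, and so did 28.5% of all genes.

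Chaperones of the endoplasmic reticulum (ER) were higher in the rescue, 14 of 15 with none lower and a median of 0.63. Of all genes tested, 24.3% were higher. HSPA5 (BiP), the main chaperone of the ER lumen, had 10676 and 11679 normalised reads in the knockout and 24705 and 25784 in the rescue (1.19, SE 0.08, adjusted p 1.32e-53). DNAJB9, its cochaperone, had 149 and 155 against 303 and 343 (1.03, SE 0.27). CALR, a calcium-binding lectin chaperone, had 11287 and 10529 against 13698 and 13616 (0.34, SE 0.07), and before arsenite 21641 and 21734 against 18140 and 17932. HSP90B1 was at 0.38 (SE 0.08). In the authors' deposited tables, 14 of the 15 were lower with arsenite in the knockout and 8 in the rescue, where 10.4% and 4.38% of all genes were. The test of the difference in response called 12 of 15 higher in the rescue, where 4.04% of all genes were.

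Of 14 genes of the integrated stress response, driven by the factor ATF4 when eIF2 is phosphorylated, 5 were higher and 2 lower. Of all genes tested, 24.3% were higher and 19.2% lower, so nothing is read from these counts about the list. Without arsenite, limma called 10 of the 14 higher and 3 lower in the rescue. CEBPB had 506 and 443 normalised reads against 1567 and 1663 (1.78, SE 0.19), and TRIB3, a pseudokinase, 269 and 277 against 980 and 847 (1.75, SE 0.23). VLDLR, a lipoprotein receptor with an antisense neighbour, was lower (-1.68, SE 0.22), and so was PHGDH, the first enzyme of serine synthesis (-0.53, SE 0.11). DDIT3 (CHOP) ended at like levels, 983 and 971 against 894 and 895 (0.08, adjusted p 0.822), from 87.1 and 90.0 and 290 and 273 before arsenite.

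Antioxidant genes controlled by NRF2 were higher in the rescue, 12 of 16 with a median of 0.71, where 24.3% of all genes were higher. Without arsenite, limma called 11 of the 16 higher and 3 lower in the rescue, with a median of 0.63. The test of the difference in response called 1 higher and 2 lower. TXN, thioredoxin, had 536 and 527 normalised reads against 1584 and 1677 (1.61, SE 0.17), and SRXN1, sulfiredoxin, 34.4 and 36.7 against 109 and 110 (1.49, SE 0.49). FTL, the ferritin light chain, was at 0.55 (SE 0.09). HMOX1, haem oxygenase, had 2137 and 2078 against 3564 and 3434 (0.86, SE 0.16).

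Ribosomal protein genes were nearly all higher in the rescue. Of 79 tested, 77 were higher and none lower, with a median of 0.74, and 2 were not called, while limma called all 79 higher. Of all genes tested, 24.3% were higher, and 35.1% by limma. With the median shift of 0.16 subtracted, 73 of 79 were still called higher. RPL26 had 181 and 172 normalised reads against 411 and 413 (1.19, SE 0.26), RPL17 54.3 and 45.1 against 212 and 174 (1.76, SE 0.39), RPL7A 4145 and 4026 against 5377 and 5506 (0.44, SE 0.09). RPL23A was at 0.43 (SE 0.11), and at 0.26 (adjusted p 0.0505) after the shift. Ribosomal protein genes have many processed pseudogenes, and reads that map to several places were set apart in the counting. All 79 were also higher in the untreated rescue, by limma. In response, 1 differed by the deposited values and 3 by limma. Hosts of small nucleolar RNAs were also higher, with 14 of 16 higher, none lower and a median of 1.01. Without arsenite, limma called 15 of the 16 higher and none lower. SNHG4 had 181 and 139 against 709 and 757 (2.07, SE 0.22), and SNHG16 1086 and 1112 against 3126 and 3102 (1.51, SE 0.12). SNHG29 was at 0.65 (SE 0.10) and SNHG6 at 0.57 (SE 0.16).

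Transcripts of both groups usually start with a C followed by pyrimidines (the 5′ TOP motif), through which their translation is tied to growth signals. The 30 bases around the RefSeq start (15 before and 15 after, GRCh38.p14) show it for RPL26, RPL7A and SNHG4. RPL17, SNHG29 and SNHG6 were searched in the same way, and no tract was found or no start was listed. Capitals mark only the part of a tract within 5 bases before and 10 after the start, and pyrimidines can continue beyond them.
RPL26, chr17:8383179-8383208, - strand: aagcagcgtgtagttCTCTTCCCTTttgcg
RPL7A, chr9:133348203-133348232, + strand: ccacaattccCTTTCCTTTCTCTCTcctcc
SNHG4, chr5:139274086-139274115, + strand: ctcggctcccggctgCCCTTTCCCCtccgg
A C followed by at least 4 pyrimidines, on the gene's strand and within the window from 5 bases before to 10 after any listed start, was found in 54 of 63 ribosomal protein genes and 9 of 14 small nucleolar RNA hosts in the table, against 25.2% of 27305 genes.

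**Figure D4:**
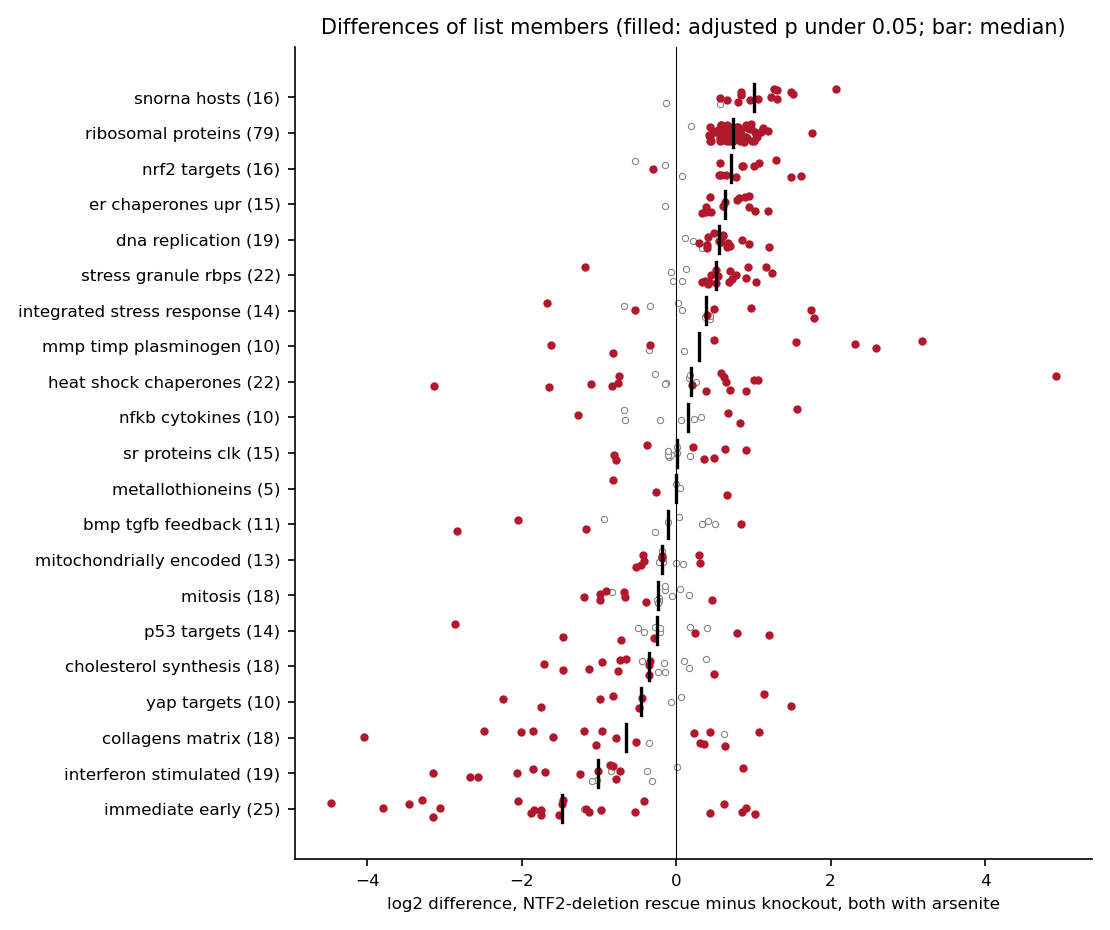
Log2 difference, NTF2-deletion rescue minus knockout under arsenite, of every tested member of the 21 gene lists (number tested in brackets); filled points passed an adjusted p under 0.05 and the bar is the list's median. Medians run from -1.47 for immediate-early genes to 1.01 for hosts of small nucleolar RNAs; the point at 4.92 is HSPA6, whose reads go the other way.

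RNA-binding proteins of stress granules were higher, 17 of 22 with 1 lower and a median of 0.52, where 24.3% of all genes were higher. Without arsenite, limma called 18 of the 22 higher and 1 lower. YBX3, a cold-shock domain protein, had 4078 and 3853 normalised reads against 9311 and 9260 (1.25, SE 0.09), and PABPC4, a poly(A)-binding protein, 3087 and 2885 against 6475 and 6704 (1.16, SE 0.09). The partners of the NTF2-like domain were among them, CAPRIN1 with 3826 and 3727 against 6087 and 5842 (0.68, SE 0.09) and USP10 with 1458 and 1426 against 2749 and 2590 (0.91, SE 0.12). DDX6, a helicase of P-bodies, was at 0.34 (SE 0.11), and at 0.18 (adjusted p 0.182) after the shift was subtracted. TIA1, a prion-like granule protein, was the 1 lower member, with 1689 and 1923 against 834 and 727 (-1.18, SE 0.15). DDX3X was the 1 member with a different response in the deposited values, and limma on the reads called DDX3X and ELAVL1.

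Interferon-stimulated genes were lower, 12 of 19 tested with 1 higher and a median of -1.01, where 19.2% of all genes were lower. IFIT1, an antiviral RNA-binding protein, had 67.8 and 53.5 normalised reads in the knockout and 0.972 and 6.85 in the rescue (-3.14, SE 0.58). XAF1 had 117 and 147 against 20.4 and 12.7 (-2.67, SE 0.45). SAMD9 was at -0.73 (SE 0.25), and IFIT5 was the 1 higher member (0.87, SE 0.27). Untreated cells differed in the same way, with 16 of 19 lower by limma, and the response differed for 1 of the genes, IFI6, by either test. The upstream sequence of IFIT1 holds 2 matches to the interferon response element GAAANNGAAA, searched on both strands, in capitals.
IFIT1, chr10:89392373-89392622, + strand: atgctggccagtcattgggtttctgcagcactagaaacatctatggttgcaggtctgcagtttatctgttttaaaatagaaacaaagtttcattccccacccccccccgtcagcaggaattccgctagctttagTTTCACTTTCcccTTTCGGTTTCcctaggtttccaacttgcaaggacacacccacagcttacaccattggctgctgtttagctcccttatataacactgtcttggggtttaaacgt
Such a match lay before 14 of 20 listed genes with a promoter, IFIT5 and SAMD9 included, against 3.71% of 27305 genes.

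Genes of the extracellular matrix and its proteases went both ways. Among collagens and matrix proteins 10 of 18 were lower and 6 higher, with a median of -0.65. COL3A1, a fibrillar collagen, had 15318 and 15154 normalised reads against 888 and 919 (-4.05, SE 0.08), and POSTN, periostin, 87.7 and 83.9 against 13.6 and 13.7 (-2.49, SE 0.42). COL6A3 had 2144 and 3270 against 5751 and 5653 (1.08, SE 0.26), and TNC was at 0.64 (SE 0.09). Among proteases of the matrix, their inhibitors and the plasminogen system 5 of 10 were higher and 3 lower. MMP9, a gelatinase, had 532 and 592 against 3321 and 3508 (2.59, SE 0.15), while TIMP2, an inhibitor of such proteases, had 2066 and 2024 against 680 and 630 (-1.62, SE 0.11). MMP14, a membrane-bound metalloproteinase, was lower as well (-0.82, SE 0.10). In the NF-kB and cytokine list, 3 of 10 were higher, IL11 (1.57, SE 0.33), ICAM1 (0.83, SE 0.12) and LIF (0.68, SE 0.13), and NFKBIZ was lower (-1.27, SE 0.21). The counts of this paragraph stand beside 24.3% higher and 19.2% lower of all genes tested. Nothing is read from them about the NF-kB and cytokine list.

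DNA replication genes were higher in 15 of 19, with none lower and a median of 0.56. The counts under arsenite, before the shift is subtracted, stand beside 24.3% higher and 19.2% lower of all genes tested. Those after the shift stand beside 18.4% higher and 24.4% lower. The limma counts without arsenite stand beside 33.6% higher and 32.3% lower. Without arsenite, limma also called 15 of the 19 higher and none lower. CDC6, which loads the replicative helicase, had 612 and 621 normalised reads against 1438 and 1381 (1.20, SE 0.16), and CCNE1 was at 0.94 (SE 0.20). PCNA (0.39, SE 0.12) and TYMS (0.29, SE 0.08) were no longer called after the shift (adjusted p 0.0952 and 0.192). Mitotic genes were lower in 7 of 18 and higher in 1, CDC20 (0.47, SE 0.11), with KIF20A, a mitotic kinesin, at -1.19 (SE 0.14), CENPE at -0.99 (SE 0.12) and KIF11 at -0.39 (SE 0.12). With the shift subtracted 12 of the 18 were lower. Without arsenite, limma called 12 of these mitotic genes lower and 1 higher. Among cholesterol synthesis genes 10 of 18 were lower and 1 higher, INSIG1 at -1.71 (SE 0.22), STARD4 at -1.46 (SE 0.16), HMGCS1 at -0.34 (SE 0.10) and NSDHL at 0.48 (SE 0.19). After the shift 13 were lower and NSDHL was not called (adjusted p 0.177).

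For p53 targets, BMP and TGF-beta feedback genes and splicing factors, the counts are small and stand beside 24.3% higher and 19.2% lower of all genes tested, so nothing is read from them about the lists. Of 14 p53 targets 3 were higher and 4 lower, with TP53INP1 at 699 and 852 normalised reads against 111 and 92.0 (-2.86, SE 0.21), BBC3 at -1.47 (SE 0.26), GADD45A at 1.20 (SE 0.15) and PMAIP1 at 0.79 (SE 0.18). Feedback genes of BMP and TGF-beta signalling were lower in 3 of 11 and higher in 1. SMAD6, an inhibitory SMAD, had 913 and 815 against 113 and 117 (-2.83, SE 0.21), SKIL was at -1.17 (SE 0.12) and NOG, a BMP antagonist, at 0.84 (SE 0.20). ATOH8 was at -2.04 (SE 0.63), with 49.1 and 11.5 against 7.78 and 2.94, and it was not called by limma without the deeper knockout library (-1.09, adjusted p 0.163, the lone knockout library being assumed to vary like the rescue pair). SR splicing factors and their kinases were higher in 5 of 15 and lower in 3, with SRSF7 at 0.90 (SE 0.12), SRSF1 at 0.64 (SE 0.14), CLK1 at -0.80 (SE 0.15) and CLK4 at -0.78 (SE 0.29). Mitochondrially encoded genes were lower in 6 of 13 and higher in 2, MT-ND2 (0.31, SE 0.07) and MT-ND6 (0.29, SE 0.10), neither of which was called after the shift. MT-CO3 (-0.52, SE 0.08) and MT-CYB (-0.46, SE 0.06), subunits of the respiratory chain, were the lowest.

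How far the NTF2-deletion form differed from wild-type G3BP1 in this setting was tested on the same 2 rescues under arsenite. Of 16553 genes 8 were higher (0.0483%) and 5 lower (0.0302%) with the wild type, 0.0785% together, and 199 had an unadjusted p under 0.05. limma on the reads called 733 higher (4.43%) and 550 lower (3.32%), 7.75% together. The 2 deposited tables share the untreated knockout, whose error is counted in both standard errors, so the test on deposited values is conservative. With that shared error removed, 51 genes were called, 44 higher and 7 lower with the wild type. The values of each rescue are given here side by side. List members higher with the wild type were the inducible chaperones HSPA1A (0.71, SE 0.12), HSPA1B (0.69, SE 0.12) and DNAJB1 (0.51, SE 0.09), with HMOX1 (0.77, SE 0.15), DUSP2 (0.72, SE 0.16), JUN (0.42, SE 0.09) and ANKRD1 (0.33, SE 0.08). HSPA1A had 5166 and 5619 normalised reads in the NTF2-deletion rescue, 8266 and 9058 in the wild-type rescue and 13351 and 10835 in the knockout. JUN, an AP-1 subunit, had 8908 and 9133, 11893 and 11822, and 22889 and 19981 in the same order. HMOX1 had 3564 and 3434, 5926 and 5815, and 2137 and 2078. ATF3 had 1572 and 1634 reads in the wild-type rescue, above both NTF2-deletion libraries, and was not called from the deposited values (0.60, adjusted p 0.600) but was by limma (0.57, adjusted p 1.89e-09). CD44 had 7208 and 7290 in the wild-type rescue and was called by neither (-0.06, and -0.08 by limma with an adjusted p of 0.0834).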

How the data were processed

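Polyadenylated RNA of 12 libraries of U2OS cells was sequenced, and the files used here are the authors' tables of comparisons between groups. STAR 1.5.3 and DESeq2 2.11.40.6 are named in the submitters' processing notes. Build, annotation and strand use in counting are not given in the sources used here. The deposited base mean is a signal, the mean of reads divided by size factors. The deposited log2 fold changes are shrunk towards 0, as their values show, and the authors give a standard error, Wald score, p-value and adjusted p-value with each. The difference between 2 deposited log2 fold changes was tested against a normal distribution with Benjamini-Hochberg adjustment over all genes with base means of at least 10 in both tables. The 4 rows of read summaries per table were removed. Whole reads were recovered from the base means for 100% of 61545 rows (relative tolerance 1e-14), and limma 3.58.1 (R 4.3.3) was run on log2(normalised reads + 1). Recovered libraries carry no replicate number. Tests were tried on simulated data. Intervals cover counting error only. Sequences are RefSeq's (GRCh38.p14).

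Members, lists and tests were chosen with earlier results of these data known. Named genes are G3BP1, G3BP2, the 10 highest and 10 lowest called differences with base means of at least 100, and the 2 highest and 2 lowest called members of each list. Other genes are named with their values only. One list member is not reported here.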

Additional observations from a re-analysis of the deposited data

Results flagged for a closer look

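The arsenite response of 33 named genes differed between the NTF2-deletion rescue and the knockout, by the test of the difference between the deposited log2 fold changes of arsenite in each (adjusted p under 0.05, 2 libraries a group). Values in brackets are the rescue's log2 response minus that of the knockout.

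The response was lower in the rescue for 17 genes: immediate-early genes and YAP targets ATF3 (-5.19), EGR2 (-3.89), FOSL1 (-2.56), KLF2 (-1.77), CCN2 (-3.33) and CCN1 (-3.32), metal-induced genes MT2A (-2.04), SLC30A1 (-1.50) and MT1E (-1.13), the chaperones DNAJB4 (-1.01) and CRYAB (-0.95), and GADD45A (-1.30), NFKBIZ (-1.27), CLK1 (-0.58), HMGCS1 (-0.49), SKIL (-0.39) and CENPE (-0.37).

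It was higher in the rescue for the ER chaperones HSPA5 (0.30), HSP90B1 (0.45) and CALR (0.58), the small nucleolar RNA hosts SNHG16 (0.40) and SNHG4 (0.85), and POSTN (1.02), SLC2A12 (0.65), NSDHL (0.63), TIMP2 (0.49), G3BP1 (0.47), TXN (0.47), AXL (0.41), MMP9 (0.40), CD44 (0.38) and MMP14 (0.31). For POSTN and SLC2A12 limma on the recovered reads gave 1.88 and 1.40, but both rest on few reads in the rescue. POSTN had 9 and 6 reads in the untreated rescue and 14 and 14 with arsenite. SLC2A12 had 9 and 7 reads in the untreated rescue and 19 and 12 with arsenite. HSPA6 was also higher at 1.09 in the deposited values, while limma on the recovered reads gave -4.83. Apart from HSPA6, the knockout response of the genes with a higher value was below 0 by limma, so higher can mean a smaller fall. CD44 responded by -0.70 in the knockout and -0.29 in the rescue, and AXL by -0.79 and -0.36. In the rescue SNHG16, POSTN, SLC2A12, G3BP1 and TXN were above 0. For G3BP1, reads of the transgene and of the endogenous gene cannot be told apart.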

How the results depend on the processing

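Between rescue and knockout under arsenite, 7053 genes were called. limma on recovered reads called 11156 with 4 libraries (5450 lower), 11194 with 12 libraries (5415 lower) and 11250 with a pseudocount of 5 (5519 lower). With voom weights it called 11258 (5525 lower) and with size factors of the 4 libraries 11160 (5998 higher, 5162 lower), both alternatives chosen after seeing the data. With a difference of at least 1 also required, 3230 were called, 1296 higher and 1934 lower. Without each library in turn (the lone library of an arm is assumed to vary like the other group's pair), limma called 4959 to 4999 genes lower. The difference in arsenite response called 1863 genes with limma on 8 libraries (1105 higher, 758 lower), and 1257 with the shrinkage undone (603 higher, 654 lower, against 624 and 475). Wild type against NTF2 deletion called 51 genes with the shared knockout error removed (44 higher), 1283 with limma (733 higher, 550 lower), and 3 lower among base means of at least 100. These limma alternatives for the last 2 comparisons were also chosen after seeing the data. HSPA6 reversed to -1.95 with limma on 4 or 12 libraries, -1.93 with the pseudocount of 5, -1.95 with voom, -1.90 with 4-library size factors, and -2.30 to -1.59 without each library. The causes were not tested. Over 102 named genes and 1516 pairs of gene and setting, 1494 kept direction and call, 13 lost the call and 9, all HSPA6, reversed. No paired analysis was possible because the recovered libraries carry no replicate numbers.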

Other observations

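Several protein families outside the lists, chosen after the data were seen, were higher or lower in the NTF2-deletion rescue than in the knockout under arsenite. Of all genes tested, 24.3% were higher and 19.2% lower. Of 77 mitochondrial ribosomal proteins 61 were higher and none lower, with a median log2 difference of 0.85. Of 37 proteasome subunits 31 were higher, and the 1 lower member, PSMB9, a subunit of the immunoproteasome, had 207 and 177 normalised reads in the knockout and 63.2 and 62.6 in the rescue (-1.55, SE 0.32). Of 20 cytosolic aminoacyl-tRNA synthetases, which charge tRNAs with amino acids, 17 were higher and none lower (median 1.02). Of 55 translation initiation factor genes 42 were higher and 3 lower (median 0.88), and all 8 subunits of the CCT chaperonin, which folds actin and tubulin, were higher (median 0.93). Without arsenite, the medians of these families by limma were 0.72, 0.65, 0.81, 0.74 and 0.88, in the order given.

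Protocadherins, adhesion proteins of the cadherin family, were lower in 35 of 53 with none higher (median -1.73). Without arsenite, their median by limma was -2.36. Clustered protocadherins share exons, so their reads are uncertain. PCDH18, outside the clusters, had 178 and 201 normalised reads against 12.6 and 8.81 (-3.81, SE 0.39). Laminins, subunits of the basement membrane, went both ways, with 5 of 10 higher and 4 lower, where 24.3% and 19.2% of all genes were. LAMA5 had 6831 and 6109 against 244 and 255 (-4.65, SE 0.11), while LAMB3 had 2667 and 2608 against 15371 and 15294 (2.56, SE 0.09).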
